A study of Mus musculus with 6 samples.

Results

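The Fos and Jun immediate early transcription factors were described in the cerebral cortex of young and old adult mice. The genes were chosen by symbol alone, as the genes named Fos, Fosb, Fosl2, Jun, Junb and Jund, and they make up 6 of the 55421 genes in the files. Cortices came from WT male C57BL/6J mice of 6 months (mice 10, 11 and 17) and of 24 months (mice 2, 4 and 5), n = 3 per age and 1 library per mouse. All 6 mice were fed the NIH-31 diet, anesthetised with isoflurane and killed by cervical dislocation, and RNA was taken from powdered frozen cortex. The comparison of the ages asks how mRNA expression in the cortex differs between young and old adults.

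Fos and Jun proteins carry a basic leucine zipper, with which they dimerise and bind DNA as the transcription factor AP-1. Fos proteins need a Jun partner to bind, whereas Jun proteins can also pair with each other. In cortical neurons Fos, Fosb and Junb are immediate early genes, which synaptic activity switches on within minutes and without new protein synthesis, while Jund is the more constantly expressed Jun gene.

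Only Jun separated the ages: it was lower in each of the 24-month mice than in each of the 6-month mice, by 1.96-fold (6 over 24 months), as were 16.3% of all genes tested. Fos, Junb and Fosl2 were low in 24-month mice 4 and 5, and in 24-month mouse 2 they were within or above the range of the 6-month mice. Jund followed another order of mice than the other genes. At the 1% false discovery rate (FDR) used in the study, 0 of the 6 genes were called by edgeR's quasi-likelihood test, and 0% of the 32905 genes tested were called. The study did report genes at this threshold. It used edgeR after filtering with the genefilter package and does not name which of edgeR's tests was run.

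The libraries held 29495379 to 36494240 counts. Values are given as CPM, a gene's count relative to its library total, after edgeR's TMM scaling between libraries, and log2 fold changes are for 24 over 6 months. The scaling matters for small differences: the median log2 fold change of the 15761 genes with a mean of at least 1 CPM was -0.14 with TMM and 0.05 with library totals. More genes were detected by at least 1 count at 24 months (40208 to 43561) than at 6 months (33974 to 35651).

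24-month mouse 2 stood apart in markers of other cells. The summed level of 8 oligodendrocyte markers (including Mbp, which encodes a myelin protein) was 1285 CPM in this mouse, against 3107 and 4125 CPM in 24-month mice 4 and 5 and 2422 to 3788 CPM at 6 months. All 8 of these markers were lower in mouse 2 than in both other 24-month mice, as were all 8 endothelial markers and all 5 red blood cell markers, 7 of 8 meningeal fibroblast markers and 6 of 8 neuron markers. The neuron markers summed to 6228 CPM in mouse 2, 7164 and 8059 CPM in mice 4 and 5 and 8428 to 9797 CPM at 6 months. Neurons were thus present in each library. Of markers that tell cortex from other brain tissue, only those of striatal neurons and the choroid plexus, given below, were examined. In mouse 2 the endothelial markers summed to 139 CPM, the red blood cell markers to 57.0 CPM and the meningeal fibroblast markers to 254 CPM, against 168 to 198, 76.5 to 98.4 and 300.4 to 859 CPM in the other mice. Between the ages, 8 of 8 neuron markers had a lower fitted level at 24 months, and 3 of them passed 10% FDR as lower, beside 8.33% of all genes tested. The striatal neuron markers summed to 238 to 260 CPM at 6 months and to 163 to 223 CPM at 24 months, and 3 of 8 passed 10% FDR as lower. Astrocyte markers summed to 4769 to 5422 CPM and microglia markers to 484 to 514 CPM over the 6 mice, and choroid plexus markers to 20.5 to 48.2 CPM. At 10% FDR, 1 astrocyte, 1 microglia and 2 choroid plexus markers of 8 each passed as higher at 24 months, beside 10% of all genes. As lower, 1 of 8 microglia and 1 of 5 red blood cell markers passed. No oligodendrocyte, endothelial or meningeal fibroblast marker passed in either direction. No marker in these lists was at 0 counts in any library. The part of these differences in the results for Fos and Jun genes was not tested. In bulk tissue, fewer cells of a type and less RNA per cell cannot be told apart.

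The promoters of 4 of the genes are shown, since Fos, Junb and Fosb share a short element that Jun lacks in the window searched. Sequences are the 120 bases before the RefSeq start (build GRCm38.p6), 5′ to 3′ on the strand of the gene. Capitals mark the core of the cAMP response element (TGACG), the TATA box (TATAAA) and the AP-1 variant TGACATCA. They lie at chr12:85473770-85473889 (Fos, plus strand), chr8:84978749-84978868 (Junb, minus strand), chr7:19310046-19310165 (Fosb, minus strand) and chr4:95052223-95052342 (Jun, minus strand).
Fos: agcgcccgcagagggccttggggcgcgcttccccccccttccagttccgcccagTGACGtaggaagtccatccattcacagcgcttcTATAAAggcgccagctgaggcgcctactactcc
Junb: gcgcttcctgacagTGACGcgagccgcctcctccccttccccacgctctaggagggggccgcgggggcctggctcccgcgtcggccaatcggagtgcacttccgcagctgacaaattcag
Fosb: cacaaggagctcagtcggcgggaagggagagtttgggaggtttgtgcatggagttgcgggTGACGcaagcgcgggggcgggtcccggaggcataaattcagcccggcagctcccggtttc
Jun: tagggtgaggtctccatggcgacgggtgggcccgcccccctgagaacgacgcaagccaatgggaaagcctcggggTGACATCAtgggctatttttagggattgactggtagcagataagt

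Motifs were searched on both strands of the window from 250 bases before to 50 bases after the start, and positions count from 0 at the start. TGACG was found at -129 and -66 in Fos, at -106 in Junb and at -60 in Fosb, and in 20.8% of all 32851 promoter windows. TATAAA was found at -33 in Fos, at the RefSeq start itself in Junb, outside the bases shown, and in 13.6% of all windows. TGACATCA was found at -45 in Jun and in 3.62% of all windows. The full cAMP response element TGACGTCA (1.79% of all windows), the AP-1 element TGANTCA (7.81%) and the CArG box (1.63%) had no match in the 6 windows. The motifs overlap in part, since TGACGTCA holds TGACG. For Fosl2 and Jund none of these letters were found, and their RefSeq starts (32136472 on chromosome 5 and 70697739 on chromosome 8) lie 671 and 1210 bases from the gene starts of the annotation used for positions below, so their promoters are not shown. For Junb and Fosb the starts lie 30 and 6 bases apart, and for Fos and Jun they coincide. The annotation start of Junb is downstream of its RefSeq start. The TATAAA of Junb thus lies 30 bases before the annotation start, and its position depends on the start used. These matches describe letters in a window and not binding. Bases further upstream were not searched, so the lack of a match, as for the CArG box, does not extend to them.

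Fos, the founding member of the family and a common mark of recently active neurons, lies on chromosome 12 (85473890 to 85477273, plus strand, GRCm38). Its level was 109, 134 and 51.0 CPM in 6-month mice 10, 11 and 17, and 125, 21.8 and 18.5 CPM in 24-month mice 2, 4 and 5. The ages overlapped, because 24-month mouse 2 was close to the highest 6-month mouse, while mice 4 and 5 were below all others. In the deposited TPM, which carry no scaling between libraries, mouse 2 was the highest (203 TPM, against 202 TPM in 6-month mouse 11). The mean was 98.2 ± 42.7 CPM at 6 months and 55.2 ± 60.6 CPM at 24 months (SD, n = 3). Its log2 fold change was -0.83 (SE 0.64, adjusted p = 0.397, edgeR's quasi-likelihood test), which did not pass the test.

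Fosb, whose shorter splice form ΔFosB outlasts the other family proteins after repeated activity, lies on chromosome 7 (19302696 to 19310051, minus strand). The level was 11.2, 11.4 and 9.74 CPM in the 6-month mice 10, 11 and 17, and 18.5, 10.4 and 7.08 CPM in the 24-month mice 2, 4 and 5. Mouse 2 was the highest of the 6 and mouse 5 the lowest, so that the 24-month values enclosed those of 6 months. For Fosb the log2 fold change was 0.15 (SE 0.28, adjusted p = 0.749, edgeR), within the spread between mice.

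Fosl2 encodes Fra-2, a Fos protein without the strong activation domain of Fos, and lies on chromosome 5 (32135801 to 32157842, plus strand). It was at 34.3, 44.7 and 32.7 CPM in 6-month mice 10, 11 and 17. In 24-month mice 2, 4 and 5 it was at 56.8, 21.9 and 20.2 CPM, with mouse 2 above and mice 4 and 5 below the 6-month mice. The log2 fold change was -0.18 (SE 0.34, adjusted p = 0.748, edgeR) and its sign turned with library totals as scaling (0.028).

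Jun, which encodes c-Jun, the classical partner of Fos, is a gene of 1 exon on chromosome 4 (95049034 to 95052222, minus strand). Its level was 92.4, 102 and 76.6 CPM in 6-month mice 10, 11 and 17, and 55.1, 37.1 and 45.9 CPM in 24-month mice 2, 4 and 5. Jun was the only one of the 6 genes whose ages did not overlap, and 24-month mouse 2 lay with its age group, although at its upper end. The mean was 90.3 ± 12.8 CPM at 6 months and 46.0 ± 9.03 CPM at 24 months (SD, n = 3). The log2 fold change was -0.97 (SE 0.16, adjusted p = 0.0518, edgeR's quasi-likelihood test).

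Jun thus passed 10% FDR and not 1% FDR: 1 of the 6 genes was lower at 10% FDR, beside 8.33% of all genes tested, and 1 of 6 was lower without overlap, beside 16.3% of all genes. A count of 1 in 6 is near these shares. They are over all 32905 genes tested, of which 15761 had a mean of at least 1 CPM, as all 6 genes did. Shares among genes of at least 1 CPM were not counted, so the background is unlike the 6 genes. By edgeR's likelihood ratio test Jun passed 1% FDR (adjusted p = 5.53e-05), as did 0.766% of all genes in the lower direction. It also passed 1% FDR by edgeR's exact test (adjusted p = 6.42e-05, with 0.574% of all genes) and by DESeq2 (adjusted p = 9.86e-05, with 0.551% of all genes). By limma on log2(TPM + 1) Jun passed neither threshold (adjusted p = 0.168), nor did it by edgeR's quasi-likelihood test without 6-month mouse 10 (adjusted p = 0.150), 6-month mouse 11 (0.153) or 24-month mouse 4 (0.166). The fold change lay between -1.11 and -0.83 when each mouse was left out in turn, and was -0.78 with library totals as scaling. Beside the 0 genes called at 1% FDR by the quasi-likelihood test, 10097 genes had an unadjusted p under 0.05, and the smallest adjusted p was 0.0210. Jun shares 232 exonic bases with the antisense gene Junos, which had 17 to 45 counts per library against 1283 to 3517 for Jun. The counting options named in the methods include none for strand, which featureCounts ignores by default, so reads of both genes in the shared bases cannot be told apart.

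Junb, which can oppose Jun at some promoters and is strongly induced by activity, lies on chromosome 8 (84974484 to 84978718, minus strand). It was at 391.7, 485 and 240.1 CPM in 6-month mice 10, 11 and 17, and at 696, 152 and 96.5 CPM in 24-month mice 2, 4 and 5. Mouse 2 was the highest of the 6 mice and mice 4 and 5 were the lowest, so the ages overlapped. For Junb the log2 fold change was -0.24 (SE 0.59, adjusted p = 0.806, edgeR). Junb shares 173 exonic bases with Prdx2 on the other strand, whose counts of 4958 to 6306 varied far less between mice than the 3283 to 22577 counts of Junb.

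Jund, the Jun gene with a steadier expression in most tissues, is a gene of 1 exon on chromosome 8 (70698949 to 70700616, plus strand). The level was 10.3, 24.3 and 68.3 CPM in 6-month mice 10, 11 and 17, and 76.3, 43.8 and 24.6 CPM in 24-month mice 2, 4 and 5. 6-month mouse 10, the lowest for Jund, was above 4 of the other mice for Jun and above 3 for Fos. The highest 6-month mouse for Jund (mouse 17) was the lowest of its age for the other 5 genes. The log2 fold change was 0.49 (SE 0.58, adjusted p = 0.585, edgeR). It was 1.48 (adjusted p = 0.110, edgeR) without 6-month mouse 17, 0.061 without 6-month mouse 10 and 0.0071 without 24-month mouse 2, so the value rested on single mice. Of the 1668 exonic bases of Jund, 877 are shared with the antisense gene Gm11175, which had 0 counts in all libraries, so its level is uncertain if reads there were not assigned.

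**Figure D1:**
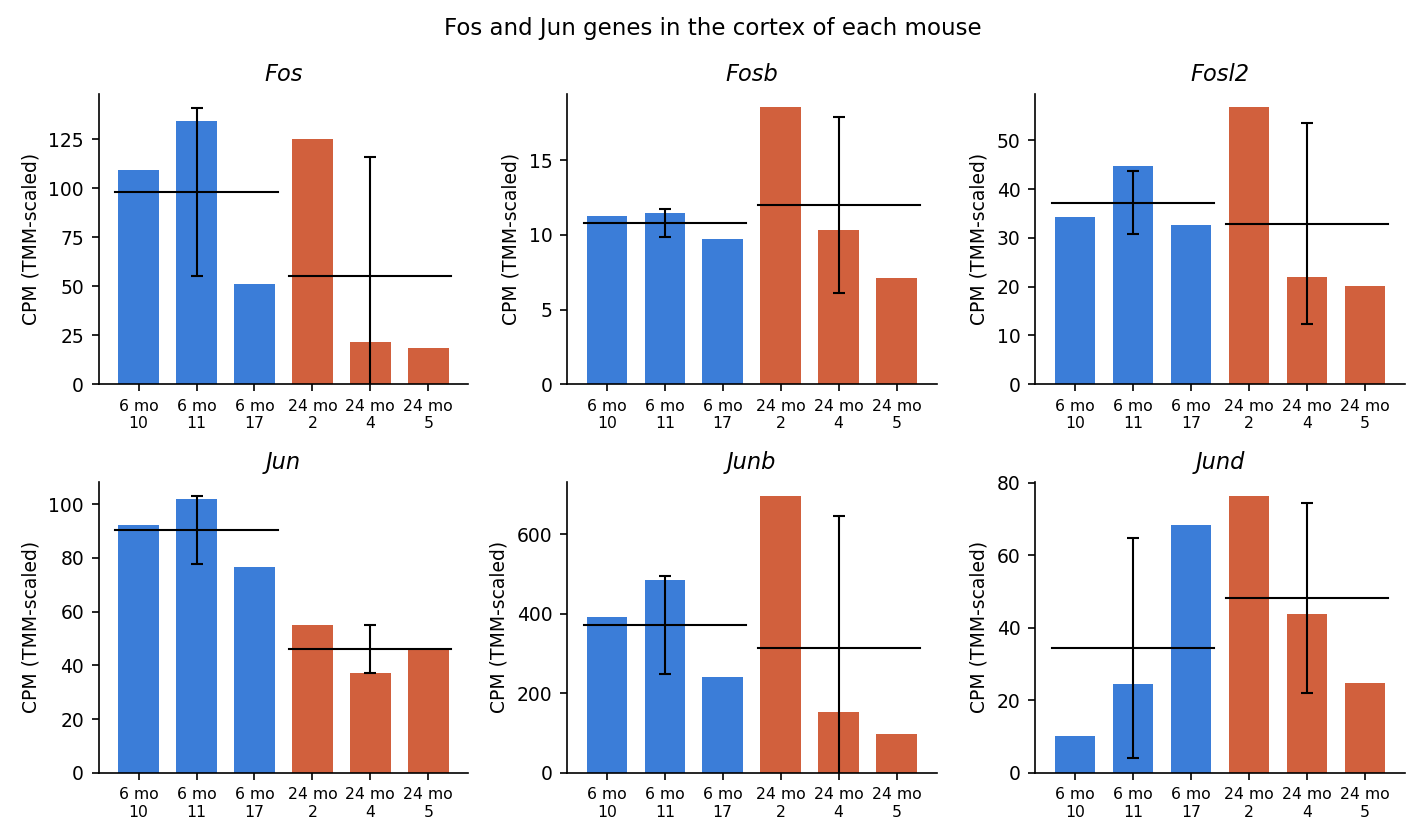
TMM-scaled CPM (y axis, from 0, a scale per gene) of the 6 genes in each mouse (x axis, age in months above the mouse number; 6 months blue, 24 months orange). Each bar is 1 mouse, horizontal lines are means and error bars the SD of the 3 mice of an age, cut off at 0: Jun is lower in the 24-month mice without overlap (37.1 to 55.1 against 76.6 to 102), whereas 24-month mouse 2 is the highest of the 6 mice for Fosb, Fosl2, Junb and Jund.

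24-month mouse 2 was the highest of the 6 mice for 4 of the 6 genes (Fosb, Fosl2, Junb and Jund), beside 11% of all genes of at least 1 CPM. The spread within an age was described by the SD of log2 CPM over 3 mice. For Fos it was 0.73 at 6 months and 1.53 at 24 months, and for Junb 0.52 and 1.49. The median gene of at least 1 CPM had SDs of 0.13 and 0.16, and at 24 months Fos and Junb each lay at the 99.9 percentile of these genes. Jund was the most variable of the 6 genes at 6 months, with an SD of 1.37 (99.8 percentile), against 0.81 at 24 months. Jun varied least at 24 months, with SDs of 0.21 and 0.29 (71.4 and 78.0 percentile). Fosb had an SD of 0.13 at 6 months, that of the median gene, and of 0.69 at 24 months (98.1 percentile). For Fosl2 the SD was 0.24 at 6 months and 0.83 at 24 months (99.1 percentile).

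Each mouse was left out in turn. 24-month mouse 2 was the highest of its age for all 6 genes, so leaving it out lowers their 24-month levels by construction. The counts of genes without this mouse follow in part from that. Without 24-month mouse 2, Fos, Fosl2 and Jun passed 10% FDR as lower at 24 months. These were 3 of the 6 genes, beside 0.346% of the 30062 genes then tested. The log2 fold change of Fos was then -2.27 (SE 0.36, adjusted p = 0.0771, edgeR), a level 4.84-fold higher at 6 months. That of Fosl2 was -0.81 (adjusted p = 0.0971, edgeR) and that of Jun -1.11 (adjusted p = 0.0661, edgeR). Junb was just outside the threshold, at -1.57 (SE 0.30, adjusted p = 0.101, edgeR). Fosb moved to the other side of 0, at -0.30 (adjusted p = 0.330, edgeR). The values of Fos, Fosl2, Jun and Junb (4 of 6 genes) did not overlap between the ages without this mouse, beside 21% of all genes in the lower direction. Fos had smaller fold changes without 24-month mouse 4 (-0.44), 24-month mouse 5 (-0.41) or 6-month mouse 11 (-0.52), and none of these passed. The fit without 24-month mouse 2 had 2 mice at 24 months, and none of the 6 genes passed 1% FDR in it.

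**Figure D2:**
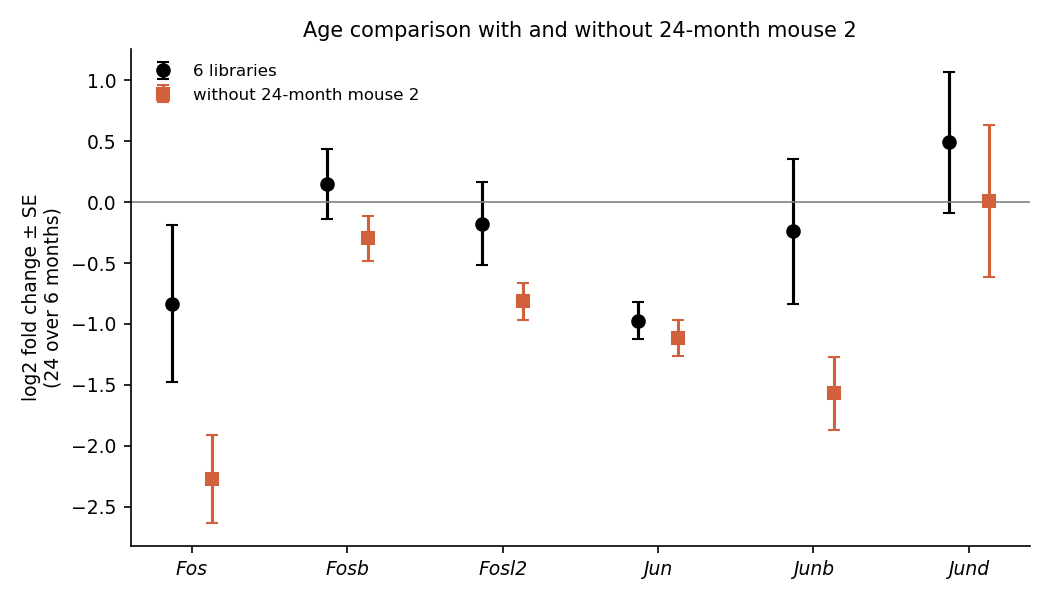
Log2 fold change (24 over 6 months, y axis) of each gene, for all 6 libraries (black circles) and without 24-month mouse 2 (orange squares). Error bars are SEs calculated back from the statistic of edgeR's quasi-likelihood test. Jun moves little (-0.97 and -1.11), whereas Fos moves from -0.83 to -2.27 and Junb from -0.24 to -1.57.

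Levels were compared between the genes in TPM, the deposited transcript level that accounts for gene length. Junb was the most abundant, at 569 ± 190.2 TPM at 6 months and 521 ± 548 TPM at 24 months (SD, n = 3), and ranked 230 among all genes by mean TPM. At 6 months it was followed by Fos (147 ± 64.2 TPM), Jun (99.6 ± 14.3 TPM), Jund (72.5 ± 64.0 TPM), Fosl2 (13.5 ± 2.44 TPM) and Fosb (6.09 ± 0.52 TPM). Of the neighbours in this order, Fos and Jun, and Jun and Jund, overlapped in their ranges, and the others did not. At 24 months the order of means was Junb, Jund (110.2 ± 59.8 TPM), Fos (89.3 ± 98.2 TPM), Jun (54.9 ± 10.8 TPM), Fosl2 (12.96 ± 8.13 TPM) and Fosb (7.31 ± 3.60 TPM). At this age only the neighbours Jun and Fosl2 did not overlap.

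The 6 genes together summed to 898, 1135 and 690 TPM in 6-month mice 10, 11 and 17, and to 1629, 446 and 313 TPM in 24-month mice 2, 4 and 5. Mouse 2 thus had the highest and mice 4 and 5 the lowest sums, and the ages did not differ beyond this spread (log2 difference -0.54, exact permutation test, two-sided, p = 0.5, where 0.1 is the smallest p that 3 mice against 3 allow). Junb made up 51.0% to 70.7% of the sum in each mouse. Jund made up 2.39% and 4.55% of it in 6-month mice 10 and 11, and 10.7% to 22.4% in the other mice.

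**Figure D3:**
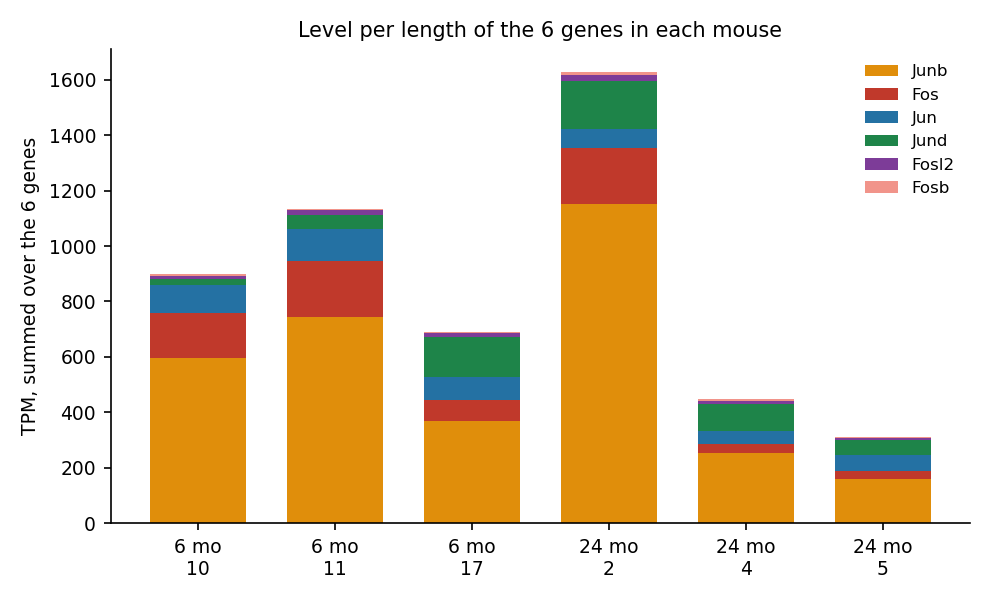
TPM of the 6 genes (y axis, stacked from 0) in each mouse (x axis, age in months above the mouse number). Junb takes the largest part of every bar, and the sums run from 313 TPM in 24-month mouse 5 to 1629 TPM in 24-month mouse 2.

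Ratios within a library do not depend on the scaling between libraries. The ratio of Fos to Jund in TPM was 7.55, 3.92 and 0.53 in the 6-month mice 10, 11 and 17, and 1.16, 0.35 and 0.53 in the 24-month mice 2, 4 and 5. This log2 difference of -2.05 between ages did not pass the exact permutation test (two-sided, p = 0.3). For the ratios of Jun, Junb, Fosl2 and Fosb to Jund the differences were -1.74, -1.48, -1.09 and -0.72, with exact permutation p of 0.2, 0.3, 0.4 and 0.6. Over the 5 ratios the Benjamini-Hochberg adjusted values were 0.5 to 0.6. All 5 ratios overlapped between the ages, since 6-month mouse 17, with its high Jund, lay within or below the range of the 24-month mice.

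Among the Fos and Jun genes themselves, the ratio of Junb to Fos was 3.67, 3.69 and 4.81 at 6 months (mice 10, 11 and 17) and 5.68, 7.14 and 5.33 at 24 months (mice 2, 4 and 5). It was higher in each 24-month mouse, mouse 2 included, although Junb varied 7.21-fold and Fos 7.26-fold over the 6 mice. This ratio was chosen among 5 after their values were seen, and its exact permutation p of 0.1 (two-sided), the smallest possible, was 0.333 after adjustment over the 5. The ratio of Junb to Jun was 17.5 in 24-month mouse 2 and between 2.92 and 6.59 in the other 5 mice.

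For genes that varied at least 4-fold between mice, the most alike genes were sought among those of at least 1 CPM, by the root mean square (RMS) difference of log2 CPM, centred over the 6 mice. The gene closest to Fos was Arc, which encodes a synaptic protein induced by activity, with an RMS difference of 0.084. Arc was at 950, 1135 and 508 CPM in 6-month mice 10, 11 and 17, and at 1109, 187 and 155 CPM in 24-month mice 2, 4 and 5. Next came the orphan nuclear receptor Nr4a1 (0.28), Atf3 (0.33), Junb (0.34) and the MAP kinase phosphatase Dusp1 (0.36). Only 2 of 15760 genes lay within 0.3 of Fos, and Arc was the only one of 28 other rapid immediate early genes that ranked the 6 mice as Fos did, beside 0.159% of all genes of at least 1 CPM.

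For Junb the closest genes were Nr4a3 (0.26), Egr4 (0.26), Tnfrsf25 (0.30), Atf3 (0.33) and Fos (0.34). Of the other Fos and Jun genes, Fosl2 ranked 25 and Jun 59 in likeness to Fos, and Fosb ranked 136. In likeness to Junb the order of Jun and Fosb was the reverse, with Fosl2 at rank 16, Fosb at 46 and Jun at 240. Fosl2 ranked the 6 mice by CPM as Junb did. The RMS difference also counts the size of the variation, so a gene of the same order but smaller range ranks lower. Jund ranked 15606 of the 15760 genes in likeness to Fos and 15436 in likeness to Junb. These likenesses rest on 6 mice, in which 24-month mouse 2 carries much of the pattern.

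**Figure D4:**
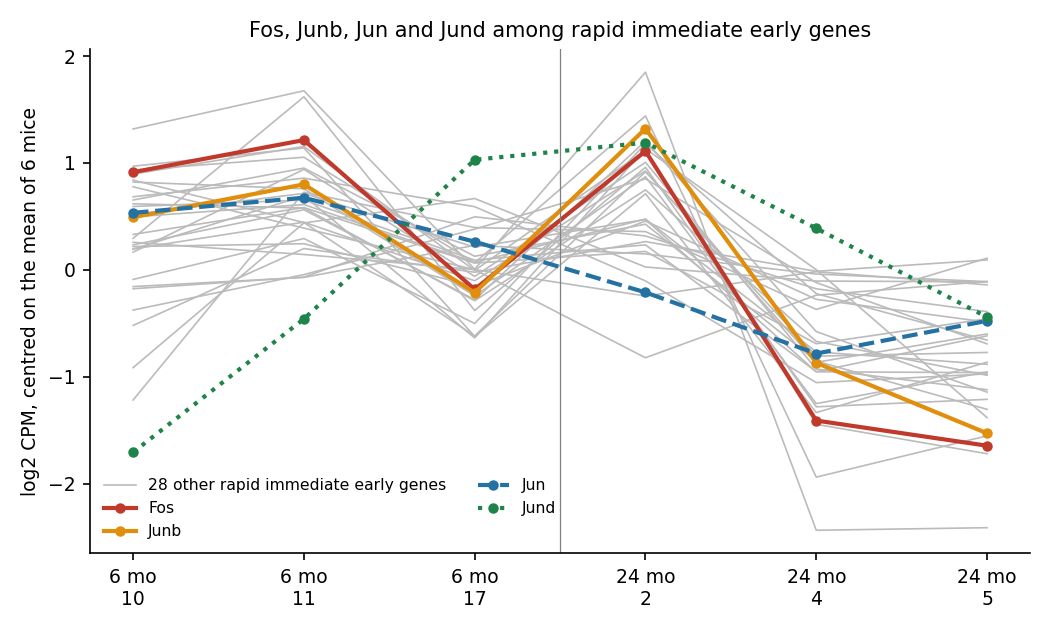
Log2 CPM centred on the mean of the 6 mice (y axis) for Fos, Junb, Jun and Jund (colours) and 28 other rapid immediate early genes (grey) in each mouse (x axis; lines join the values of a gene and carry no order). Fos and Junb lie with the grey lines, of which 26 of 28 are higher in 24-month mouse 2 than in mice 4 and 5, and Jund is lowest in 6-month mouse 10.

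Jund was accompanied by other genes. The 5 closest were Trappc14 (RMS difference 0.13), Itgb5, Abhd17a, Rundc3a and Btbd2 (0.16), and 27 genes lay within 0.3 of it. Trappc14 was at 5.77, 12.2 and 37.7 CPM in 6-month mice 10, 11 and 17, and at 35.7, 27.4 and 13.6 CPM in 24-month mice 2, 4 and 5. The GC content of Jund transcripts was 67.1%, the highest of the 6 genes (51.9% to 62.6% for the others), and the 27 genes within 0.3 had a median of 58.6%, against 49.0% for all genes compared. Of 61 genes of at least 65% GC, 36 (59.0%) were lowest in 6-month mouse 10, the mouse with the lowest Jund, against 15.7% of all genes. Their median deviation from their own mean was -0.30 in this mouse on the log2 scale. The median deviation of the genes of at least 59.54% GC was then subtracted from Jund, and it was -0.0639 in 6-month mouse 10. After this the SD of Jund was 1.28 at 6 months and 0.76 at 24 months. The genes subtracted had a median GC content of 60.99%, below that of Jund, so these SDs cannot show how far GC content matters. The part of GC content in the pattern of Jund was not tested further.

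**Figure D5:**
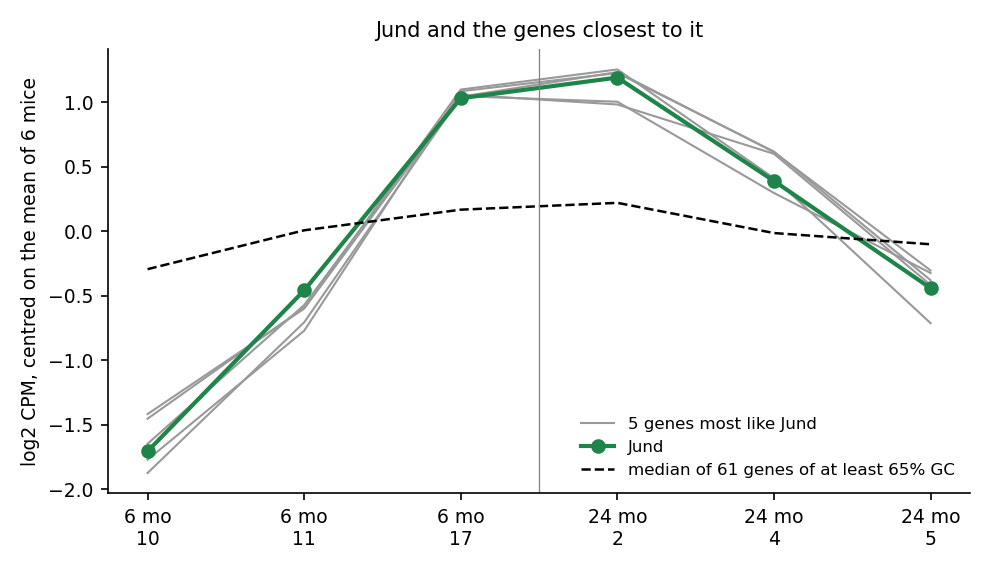
Log2 CPM centred on the mean of the 6 mice (y axis) for Jund (green), the 5 genes closest to it (grey) and the median of 61 genes of at least 65% GC (dashed) in each mouse (x axis; lines join the values of a gene and carry no order). Jund and the 5 genes are lowest in 6-month mouse 10, and the median of the genes of high GC content varies far less.

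The other genes of the pathway were taken from 4 lists. Of the other rapid immediate early genes, 28 were tested, 4 passed 10% FDR as lower at 24 months and 0 as higher (8.33% and 10% of all genes), and 24 had a lower fitted level, with a median log2 fold change of -0.44 beside -0.14 for all genes of at least 1 CPM. The 4 genes were Klf10, a zinc finger repressor (-1.36), Csrnp1, a nuclear factor (-0.82), Zfp36, which binds AU-rich mRNAs (-0.78), and Per1, a component of the circadian clock (-0.62). The count was 1 with library totals, filterByExpr or GC offsets, 0 with limma, and 0 without 6-month mouse 10, 6-month mouse 11 or 24-month mouse 4. Among genes that did not pass were Egr1 (-0.998, adjusted p = 0.117, edgeR), Ccn1 (-0.90), Nr4a2 (-0.87) and Arc (-0.84). As for Fos and Junb, 24-month mouse 2 was above mice 4 and 5 in 26 of the 28 genes, beside 29.5% of all genes of at least 1 CPM, and was the highest of the 6 mice in 13.

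Without 24-month mouse 2 the median of this list was -1.08 and 10 genes passed 10% FDR as lower, beside 0.346% of all genes in that fit: Egr1, Egr2, Arc, Nr4a1, Dusp1, Klf10, Csrnp1, Trib1, Per1 and Arl4d. Mouse 2 was above mice 4 and 5 in 26 of the 28 genes, so leaving it out lowers the 24-month levels of most of the list by construction. The part of the lower oligodendrocyte and endothelial markers of that mouse in this pattern was not tested.

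Of the 28 genes, 3 were lower at 24 months without overlap (Klf10, Zfp36 and Klf6), beside 16.3% of all genes. Klf10, the gene of this list with the largest fold change, was at 263, 297 and 247 CPM in 6-month mice 10, 11 and 17, and at 153, 78.9 and 83.5 CPM in 24-month mice 2, 4 and 5.

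Of 20 delayed activity-response genes, which follow the immediate early genes in time, 8 passed 10% FDR as lower and 0 as higher, beside 8.33% and 10% of all genes. The median was -0.29, beside -0.14 for all genes of at least 1 CPM. The count was 0 with library totals as scaling, with the filter of edgeR's filterByExpr, with limma, and without 6-month mouse 10, 6-month mouse 11 or 24-month mouse 4. The 8 were the MAP kinase phosphatases Dusp6 (-0.86) and Dusp4 (-0.79), the Ras exchange factor Rasgrp1 (-0.55), the prohormone convertase Pcsk1 (-0.52), the kinase Plk2 (-0.46), the granin Scg2 (-0.41), the sorting receptor Sorcs3 (-0.40) and the splicing factor Mbnl2 (-0.36). Each of these 8 genes was lower in every 24-month mouse than in every 6-month mouse, mouse 2 included, beside 16.3% of all genes, although genes chosen for passing the test tend not to overlap. Gpr3 (-0.65) did not pass, and its ages overlapped.

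Of 28 kinases and factors upstream of Fos and Jun, 9 passed 10% FDR as lower and 0 as higher, beside 8.33% and 10% of all genes. The median was -0.20, near the -0.14 of all genes of at least 1 CPM. The shares of 8.33% and 10% are over all 32905 genes tested, whose median was 0.15, and only 15761 of these had at least 1 CPM. All genes of this list and of the rapid and delayed lists had a mean above 1 CPM, so the background is unlike them. Shares among genes of at least 1 CPM were not counted. The count was 1 with library totals or with filterByExpr, 0 with limma, and 0 without 6-month mouse 10, 6-month mouse 11, 24-month mouse 2 or 24-month mouse 4. Among them were the MAP kinase kinase Map2k1 (-0.41), and Mapk8 (-0.47) and Mapk10 (-0.26), which encode JNK kinases that phosphorylate Jun, with their activator Map2k4 (-0.33). The list's lower genes also included the calcium-dependent kinases Camk4 (-0.67) and Camk2a (-0.28) and the transcription factors Crem (-0.52) and Mef2c (-0.28). In the other direction, the kinase gene Rps6ka1 (0.44) was higher in each 24-month mouse than in each 6-month mouse. It did not pass 10% FDR (adjusted p = 0.196, edgeR). Of the other AP-1 bZIP genes, which encode possible dimer partners, 13 were tested and 1 passed 10% FDR as lower, Atf2 (-0.46), a partner of Jun, which is near the 8.33% of all genes. It did not pass with library totals, filterByExpr or limma. Their median was 0.0063, and Atf3 (-0.86), Jdp2 (0.59), Maff (0.52) and Batf3 (0.42) did not pass. In none of the 4 lists did a gene pass 1% FDR by the quasi-likelihood test on all 6 libraries, and Klf10 did without 24-month mouse 2 (adjusted p = 0.00504, edgeR). Neuron markers were lower at 24 months too, as given above, and the part of this in the lists was not tested.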

How the data were processed

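RNA-seq of mouse cortex was measured in 6 libraries, 3 per age. According to the study's methods and the submitters' processing notes, the authors trimmed reads with Trim Galore 0.6.4, mapped them to GRCm38 with STAR 2.7.3a and counted them per gene with featureCounts (Subread 2.0.0). The authors deposited counts and TPM per gene and mouse. The stated options split multi-mapped reads, but 100% of deposited counts were whole numbers and were used as they are.

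The ages were compared with the quasi-likelihood test of edgeR 4.0.16 in R 4.3.3, with no covariate. Libraries were scaled by TMM, genes under 10 counts summed over all libraries were dropped, and p-values were adjusted by Benjamini-Hochberg over every gene tested. All 6 genes passed this filter; the lowest count of any in a library was 241. FDR thresholds were 1% (the study's) and 10%. The SE of a log2 fold change was its absolute value divided by the square root of the F statistic of the quasi-likelihood test. Log2 CPM used a prior count of 2. Alternatives were edgeR's likelihood ratio and exact tests, DESeq2 1.42.0, other scalings and filters, limma 3.58.1 on log2(TPM + 1), GC offsets (chosen after seeing the data) and each mouse left out. Ratios and sums used the exact permutation test in Python 3.11.15 with numpy 2.4.6, pandas 2.3.3 and scipy 1.17.1. The differential expression code was tested on simulated data.

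Genes named are the 6 genes, genes of the 4 pathway lists past 10% FDR, the 5 of each list with the largest absolute log2 fold change and a mean of at least 1 CPM, and the 5 genes most like each gene that varied at least 4-fold, apart from an item that is not reported here. The 10 genes lower without 24-month mouse 2 were named after their values were seen. The genes, lists and marker lists were chosen with earlier results of these data known. P-values set the difference between the ages against the spread between mice. Gene positions and GC content are from GENCODE vM21 (GRCm38), while the authors counted on vM23; 55240 of the 55421 gene identifiers were found in vM21. Promoters are RefSeq windows of GRCm38.p6, and all 6 genes matched by symbol. Protein sequences were not used here.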

Additional observations from a re-analysis of the deposited data

How the results depend on the processing

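None of the 6 genes passed 1% FDR under the main test or when a mouse was left out, and Jun alone did so by the likelihood ratio and exact tests of edgeR (1 gene each, log2 fold change -0.97) and by DESeq2 (1 gene, -0.97). The adjusted p of Jun ran from 5.53e-05 to 0.168 over all alternatives. Fosl2 turned to 0.028 with library totals. With each mouse left out in turn, the fold changes ran from -2.27 to -0.41 for Fos, from -0.30 to 0.42 for Fosb, from -0.81 to 0.083 for Fosl2 and from -1.57 to 0.19 for Junb, with the lowest value of each without 24-month mouse 2. Junb and Fosl2 were above 0 without 6-month mouse 11 or without 24-month mouse 4 or 5. Of the 6 genes, 1 passed 10% FDR, 0 did with limma, and 0 to 3 with a mouse left out (0 without 6-month mouse 10, 6-month mouse 11 or 24-month mouse 4, and 3 without 24-month mouse 2). Genes without overlap of the ages numbered 1 to 4 (2 without 6-month mouse 17 and 4 without 24-month mouse 2).

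The counts of list genes past 10% FDR depended on the processing, and the cause was not tested. With library totals, 0 AP-1 bZIP, 1 rapid, 0 delayed and 1 upstream gene were lower, and 1 AP-1 bZIP and 1 upstream gene were higher. With the filter filterByExpr of edgeR the lower counts were 0, 1, 0 and 1, and with limma on TPM 0, 0, 0 and 0, in the same order. With GC offsets, chosen after seeing the data, 1 rapid, 2 delayed and 2 upstream genes were lower. The upstream count was 5 by the likelihood ratio test, 5 by the exact test, 5 by DESeq2 and 5 without a filter on low counts. With a mouse left out, lower counts ran from 0 to 1 for AP-1 bZIP, 0 to 10 for rapid, 0 to 10 for delayed and 0 to 12 for upstream genes. They were 0 in all 4 lists without 6-month mouse 10, 6-month mouse 11 or 24-month mouse 4. No paired analysis was possible because the ages are different mice. As shares of the summed TPM in place of ratios to Jund, Fosb turned to 0.70 and Fosl2 to 0.32, and with a mouse left out the Fos to Jund difference ran from -3.17 to -1.26 and that of the summed TPM from -1.25 to -0.061. None of these passed the exact permutation test, which cannot decide them with so few mice. Its p cannot go below 0.1 with 3 mice against 3, and was no lower than 0.2 with a mouse left out. The order of the 6 genes by level at each age was the same in CPM per exonic kb.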
